A study of Mus musculus with 2 samples.

Results

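Lung fibroblasts rich in *Dcn*, the transcript of the matrix proteoglycan decorin, and without *Pi16* were described among cells that had been sorted for the fluorescence of their own retinoids. A cell was taken when it held at least 5 unique molecular identifiers (UMIs, each 1 counted transcript molecule) of *Dcn* and none of *Pi16*, of *Hhip* or *Aspn*, or of *Cdh5*, *Pecam1*, *Epcam* and *Ptprc*, which mark endothelial, epithelial and immune cells. Of 19622 cells kept from both libraries, 967 met these conditions, or 4.93% (95% interval 4.63 to 5.24). Library 1 gave 491 of 9634 cells (5.10%, 4.67 to 5.55) and library 2 gave 476 of 9988 cells (4.77%, 4.36 to 5.20). The intervals, by the exact Clopper-Pearson method, cover only counting error. These 967 cells are called *Dcn*-high fibroblasts here.

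The mice were of the strain C57BL/6, wild type, male and aged 3 months, and no treatment was named. Their lungs were digested with enzymes, live singlets that fluoresced under ultraviolet light (UV-positive cells) were sorted, and the cells were sequenced on separate occasions as 2 droplet libraries of 1 condition. The number of mice in each library was not given in the sources used here, so that the spread between the libraries (n = 2) may be technical. All comparisons were between groups of cells of the same libraries, with the library as a block. The p-values therefore measure how far a difference between groups varied from library to library, and not a known spread between mice.

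Adventitial fibroblasts lie in the connective tissue cuffs around larger vessels and airways, where they make collagens, proteoglycans and matrix enzymes, and a *Pi16*-positive, *Dpp4*-positive fraction of them has been described as progenitor-like in several tissues. Alveolar fibroblasts, among them the lipid-laden lipofibroblasts, lie in the walls of the gas-exchange units and are marked by *Tcf21*, *Npnt* and *Itga8*. Cells that store vitamin A take up retinol on cellular binding proteins and esterify it through LRAT, whereas RBP4 is the carrier that takes retinol through the blood.

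There were 48762735 UMIs over 9669 barcodes of library 1 and 93970185 over 10050 barcodes of library 2. *Dcn*-high fibroblasts held a median of 5903 UMIs in library 1 and 10456 in library 2. The libraries shared 23 barcodes, and no barcode was a member in both. Values given as a pair are always library 1 first and library 2 second, in counts per 1000000 (CPM), that is, the UMIs of a gene summed over a group of cells and scaled to the group's total in its library. In the *Dcn*-high fibroblasts 3 UMIs made 0.985 and 0.559 CPM.

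The members were what the other conditions left of the *Dcn*-rich cells. Of 882 and 880 cells with 5 or more *Dcn* UMIs, 30 and 116 were left out for a lineage marker, 280 and 264 for *Hhip* or *Aspn*, and 81 and 24 for *Pi16*. *Dcn* reached a median of 12 and 18 UMIs per cell among the members and a highest value of 86 and 140. Just outside the limit, 61 and 48 collagen-bearing cells with 4 *Dcn* UMIs had *Mmp3* at 949 and 633 CPM and *Ces1d* at 293 and 388 CPM. Just inside it, 60 and 34 cells with 5 *Dcn* UMIs had *Mmp3* at 1316 and 1086 CPM and *Ces1d* at 164 and 247 CPM. *Rbp4* was lower just inside the limit, at 208 and 96.6 CPM against 339 and 146 just outside. *Col14a1* stood at 120 and 175 CPM inside against 144 and 129 outside, so that the libraries differed in direction. *Mmp3* was not ordered below the limit in library 1, at 992 CPM with 2 *Dcn* UMIs and 497 with 3.

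Levels of several genes changed with *Dcn* within the group as well. Among the members, *Npnt*, an alveolar marker used to choose the comparison cells, was at 1171 CPM at 5 to 9 *Dcn* UMIs, 822 at 10 to 19, 758 at 20 to 39 and 380 at 40 or more in library 1. The same bins of library 2 held 1577, 1545, 1372 and 992 CPM. *Col14a1*, a fibril-associated collagen, went from 117 to 491 CPM between the first and the last of these bins in library 1 and from 179 to 302 in library 2. *Ces1d*, a carboxylesterase of alveolar fibroblasts, went from 212 to 40.9 CPM and from 271 to 80.1 CPM. *Dcn* is counted from the same cells as these genes, so that these values describe the group and are no test.

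**Figure D1:**
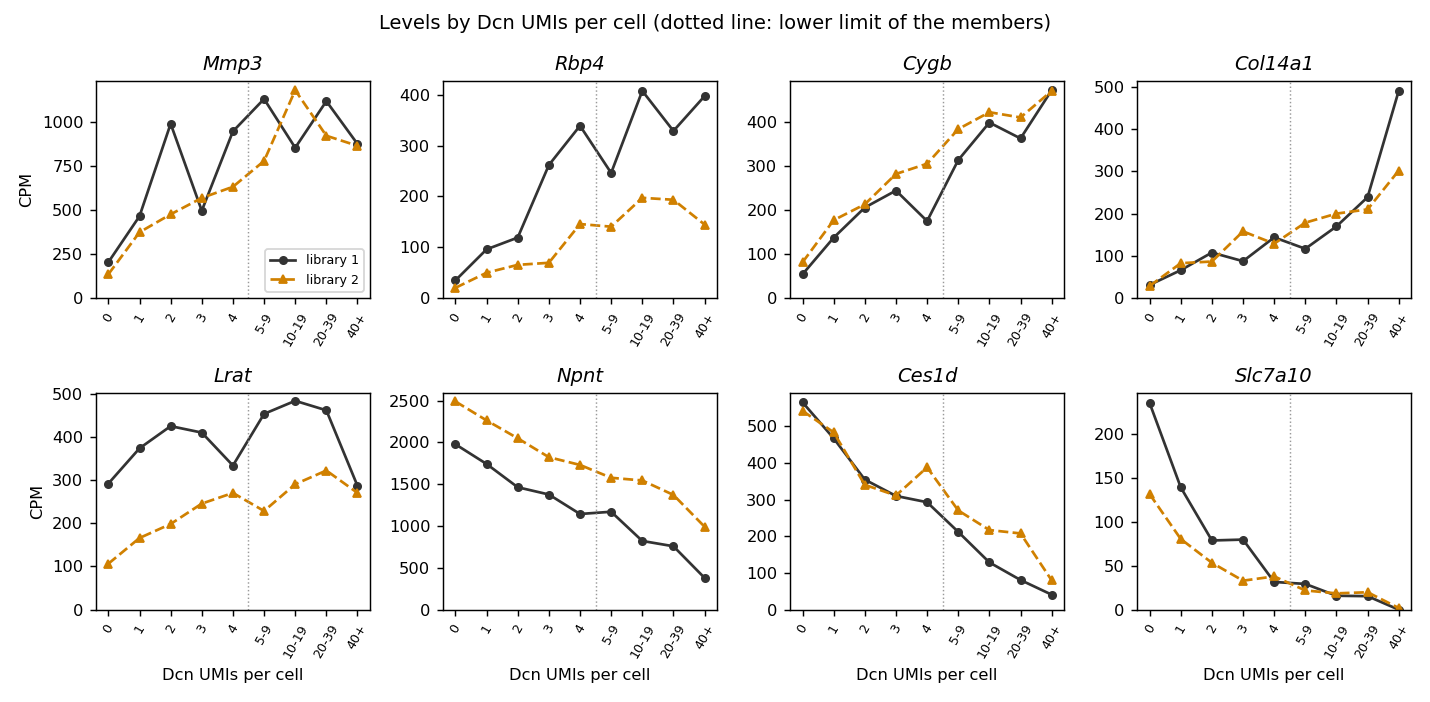
Level (CPM, linear scale) of 8 genes in cells binned by their Dcn UMIs, in library 1 and library 2, among cells that met the other conditions and held at least 3 UMIs of Col1a1, Col1a2 and Col3a1 together. The dotted line marks the lower limit of the members. Mmp3, Rbp4, Cygb and Col14a1 are higher and Ces1d and Slc7a10 lower at the right than at the left of each panel. Lrat is higher at the right than at the left in library 2 and not in library 1.

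The label of adventitial cells was checked against markers of both kinds of fibroblast. Of the *Dcn*-high fibroblasts, 437 of 491 (89.0%) and 471 of 476 (98.95%) still held at least 3 UMIs of *Tcf21*, *Npnt* and *Itga8* together, and 15 and 2 held none. *Dpp4* was near the lower limit of counting at 1.31 and 0.186 CPM. *Mfap5*, a microfibril protein, was at 955 and 836 CPM and *Dcn* at 2661 and 2231 CPM, but both had chosen the cells or their comparison. Most members therefore carried transcripts of both kinds, and they are named here by the genes that chose them and not by a position in the lung.

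The comparison cells were 2273 and 1245 fibroblasts with at least 3 UMIs of *Tcf21*, *Npnt* and *Itga8* and none of *Dcn*, *Pi16* and *Mfap5* (alveolar comparison fibroblasts). Without the condition on *Mfap5*, 5722 and 5385 cells would have entered, so that the alveolar comparison fibroblasts were a minority of such cells. They held a median of 3307 and 5550 UMIs, fewer than the *Dcn*-high fibroblasts in both libraries. The nearest cells were 81 and 24 cells that met every condition except that they held *Pi16* (*Pi16*-positive fibroblasts), with a median of 6199 and 11247.5 UMIs. The genes used to choose any of these groups are given as values only. Any other gene tested between the groups was counted in cells cut on *Dcn* and its partners, so that each test asks which genes went with the choosing genes.

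*Mmp3*, *Rbp4*, *Cygb* and *Col14a1*, which had been proposed as markers of these cells from the same data, were each higher in the *Dcn*-high fibroblasts than in the alveolar comparison fibroblasts in both libraries. *Mmp3* encodes stromelysin-1, a metalloproteinase that cleaves proteoglycans and fibronectin, and stood at 1024 and 946 CPM against 78.03 and 25.9, which gave a log2 difference of 4.34 ± 0.54 (SE), adjusted p = 1.3e-05, in edgeR's quasi-likelihood test with Benjamini-Hochberg adjustment over all genes. *Rbp4* stood at 329 and 172 CPM against 2.93 and 8.03 (5.54 ± 0.42, adjusted p = 3.5e-08). Figures given in this way after a pair of levels are always the log2 fold change with its SE and the adjusted p of that test. *Cygb*, the oxygen-binding globin cytoglobin known from vitamin A-storing stellate cells of the liver, stood at 364 and 419.6 CPM against 12.1 and 18.8 (4.77 ± 0.20, adjusted p = 5.2e-11). *Col14a1* stood at 187 and 217 CPM against 13.5 and 9.03 (4.28 ± 0.18, adjusted p = 5.1e-11). Since the markers were chosen on these cells, the values describe them and are not independent support.

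The same markers were held by different shares of the cells. *Cygb* was detected in 74.1% and 91.2% of the *Dcn*-high fibroblasts, *Col14a1* in 55.2% and 73.3%, *Mmp3* in 43.6% and 61.8%, and *Rbp4* in 41.5% and 45.2%. In the alveolar comparison fibroblasts the share was 3.43% and 7.39% for *Cygb*, 3.56% and 4.34% for *Col14a1*, 4.44% and 4.66% for *Mmp3*, and 0.66% and 1.12% for *Rbp4*. After every cell had been thinned to 2000 UMIs, which left out 9 and 0 members and 477 and 25 alveolar cells as too shallow, *Rbp4* was detected in 27.8% and 17.6% of the members against 0.278% and 0.492%. *Mmp3* was then detected in 35.5% and 42.2% against 3.79% and 2.21%, so that the difference between the groups stood at equal depth.

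*Mmp3* was spread unevenly over the members. Its median was 0 and 2 UMIs per cell while single cells reached 96 and 168, and 50 and 84 members held 20 or more. *Cygb*, by contrast, had a median of 1 and 4 UMIs and a highest value of 16 and 39. *Rbp4* had a median of 0 UMIs in both libraries and a highest value of 29 and 58.

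Stretches of genome around a listed start of *Mmp3* and of *Rbp4*, both proposed markers of the *Dcn*-high fibroblasts, are shown. Letters that match a TATA box (TATAAA) or an AP-1 element (TGACTCA or TGAGTCA) are in capitals. *Mmp3* lies on chromosome 9 (7445822 to 7455975, plus strand, GRCm38) and *Rbp4* on chromosome 19 (38116629 to 38125281, minus strand). The sequences are from RefSeq, build GRCm38.p6, at chr9:7445572-7445871 on the plus strand and chr19:38124762-38125061 on the minus strand, and each runs 5′ to 3′ from 250 bases before to 50 after the start. *Rbp4* has 2 listed starts, and the window shown, picked because it held both motifs, lies inside the span of the gene.
Mmp3 promoter: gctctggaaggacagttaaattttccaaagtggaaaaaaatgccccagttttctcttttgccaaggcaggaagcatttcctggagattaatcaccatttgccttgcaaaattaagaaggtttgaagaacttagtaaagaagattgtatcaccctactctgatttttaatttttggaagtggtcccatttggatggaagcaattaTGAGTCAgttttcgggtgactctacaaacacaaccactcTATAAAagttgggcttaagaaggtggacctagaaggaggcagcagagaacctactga
Rbp4 promoter: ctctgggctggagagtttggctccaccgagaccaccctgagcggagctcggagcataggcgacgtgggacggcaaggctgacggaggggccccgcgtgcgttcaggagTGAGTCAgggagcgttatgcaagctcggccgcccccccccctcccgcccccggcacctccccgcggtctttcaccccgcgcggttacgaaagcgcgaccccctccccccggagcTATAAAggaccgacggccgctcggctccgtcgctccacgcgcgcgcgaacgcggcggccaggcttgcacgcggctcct
The AP-1 letters begin at position -46 in *Mmp3* and -142 in *Rbp4*, and the TATAAA letters at -7 and -28, relative to the listed start. The other listed start of *Rbp4*, at the outer end of the gene (chr19:38125272-38125571), and the windows of *Lrat*, *Npnt* and *Pi16* held neither motif. Over both strands, 13.6% of 32851 promoters of this length held TATAAA and 5.20% held an AP-1 element, so that the matches are a description and not sites shown to be used.

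**Figure D2:**
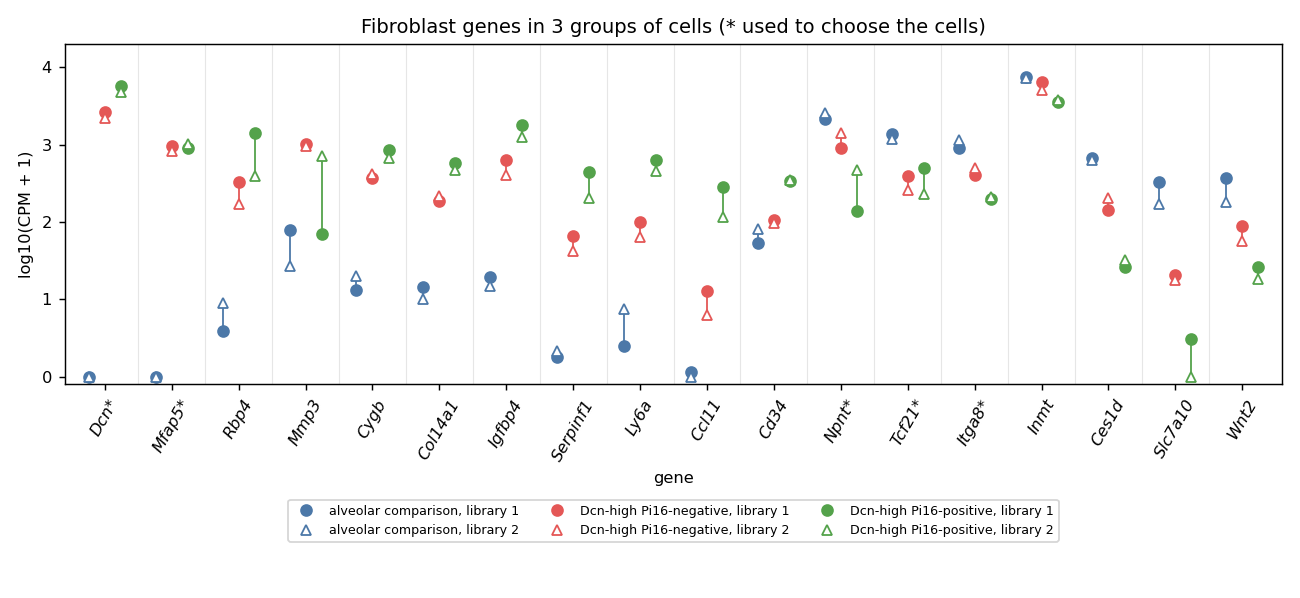
Level, as log10(CPM + 1), of 18 genes in alveolar comparison, Dcn-high Pi16-negative and Dcn-high Pi16-positive fibroblasts, with a circle for library 1 and a triangle for library 2 joined by a line. Genes with an asterisk had chosen the cells. Mmp3 is highest in the Pi16-negative cells, whereas Rbp4, Igfbp4, Serpinf1, Ly6a and Ccl11 go up from the alveolar cells through the Pi16-negative to the Pi16-positive cells, and Ces1d, Slc7a10 and Wnt2 go down.

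Against the alveolar comparison fibroblasts, the *Dcn*-high fibroblasts carried more summed transcript of collagens, proteases and inhibitors, complement, chemokines and signal modulators. They carried less of the alveolar fibroblast genes. Of 11589 genes tested, 1763 (15.2%) were higher and 1361 (11.7%) lower at an adjusted p under 0.05 in edgeR's quasi-likelihood test with the library as a block, and 3117 of the 3124 called genes had the same direction in both libraries. The median log2 fold change of all genes tested was -0.02. DESeq2 called 1348 of these genes and the edgeR fit without the block 487. Of the genes named in this comparison, DESeq2 did not call *Lox*, *Ogn*, *Plin2*, *Rdh10*, *Tbx4* and *Tbx5*, and the fit without the block lost calls such as those of *Lrat*, *Dhrs3*, *Eln*, *Cd34*, *Bgn*, *Pdgfra* and *Wnt2*.

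All 19 genes of a list of adventitial fibroblast genes were higher, with a median log2 fold change of 2.34. *Serpinf1*, which encodes the antiangiogenic pigment epithelium-derived factor, stood at 64.4 and 41.2 CPM against 0.800 and 1.15 (5.87 ± 0.28, adjusted p = 1.8e-10). *Ly6a*, the surface protein Sca-1, stood at 99.8 and 62.5 CPM against 1.47 and 6.59 (4.41 ± 0.35, adjusted p = 7.4e-08). Both genes were scarcely counted in the alveolar comparison. *Ccl11*, the eosinophil chemokine eotaxin, was at 11.8 and 5.22 CPM where 1 UMI in all was counted in the alveolar cells, and no fold is given for it. Genes already counted in the alveolar cells were higher by less, such as *Igfbp6* at 1971 and 1483 CPM against 393 and 334 (2.34 ± 0.14, adjusted p = 2.8e-09) and *Bgn*, the proteoglycan biglycan, at 2355 and 2374 CPM against 1573 and 1524 (0.72 ± 0.12, adjusted p = 0.00032). The surface protein gene *Cd34* was at 104 and 95.7 CPM against 52.8 and 78.8 (0.72 ± 0.16, adjusted p = 0.0037). The list, like the others, was drawn up with earlier results of these data known.

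Of 17 collagen genes tested, 15 were higher and 2 lower, with a median log2 fold change of 1.20. *Col15a1*, a basement membrane zone collagen, differed most at 44.7 and 58.9 CPM against 0.133 and 1.29 (6.27 ± 0.39, adjusted p = 3.6e-09). The fibrillar collagens were higher by smaller steps from a higher level, *Col1a1* at 1210.4 and 1503 CPM against 608 and 492 (1.40 ± 0.15, adjusted p = 2.3e-06) and *Col3a1* at 1802 and 2574 CPM against 715 and 517 (1.90 ± 0.19, adjusted p = 1.3e-06). The exceptions were *Col13a1*, a transmembrane collagen that marks alveolar fibroblasts, at 230.2 and 221 CPM against 391 and 330.04 (-0.57 ± 0.12, adjusted p = 0.0022), and *Col18a1*, the source of endostatin, at 53.5 and 45.7 CPM against 109.5 and 104 (-1.01 ± 0.14, adjusted p = 3.3e-05).

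Of 18 elastic fibre genes, 11 were higher and 3 lower, with a median of 0.70. Summed over the list, however, the *Dcn*-high fibroblasts held less, at 6025 and 5195 CPM against 7179 and 5847. *Fbln2*, which binds elastin and fibronectin, stood at 45.97 and 65.1 CPM against 0.667 and 1.86 (5.55 ± 0.31, adjusted p = 1.1e-09), and *Eln*, elastin itself, at 926 and 560.2 CPM against 369 and 168 (1.62 ± 0.16, adjusted p = 1.0e-06). The genes lower in the *Dcn*-high fibroblasts were *Mfap4* at 1379 and 1133 CPM against 3426 and 2394 (-1.09 ± 0.13, adjusted p = 5.5e-06), *Efemp1* (-0.50 ± 0.13, adjusted p = 0.0085) and *Lox*, the collagen and elastin cross-linking oxidase (-0.58 ± 0.17, adjusted p = 0.015). The small leucine-rich proteoglycans did not move as a block, with 3 of 7 tested higher and 2 lower (median 0.55). *Podn*, podocan, was at 90.3 and 109 CPM against 23.6 and 24.2 (2.16 ± 0.16, adjusted p = 3.5e-08), whereas *Ogn* (-0.37 ± 0.13, adjusted p = 0.044) and *Prelp* (-0.65 ± 0.12, adjusted p = 0.00088) were lower.

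Of 20 genes of proteases and their inhibitors, *Mmp3* among them, 14 were higher and 1 lower (median 1.07). *Timp1*, an inhibitor of metalloproteinases, stood at 159 and 130.4 CPM against 19.7 and 26.7 (2.73 ± 0.18, adjusted p = 7.7e-09). *Mmp2*, gelatinase A, stood at 341 and 507 CPM against 158 and 106 (1.80 ± 0.19, adjusted p = 1.8e-06) and *Mmp23* at 19.7 and 15.5 CPM against 0.800 and 1.43 (4.04 ± 0.32, adjusted p = 7.0e-08). Enzymes and inhibitors of matrix breakdown were both among the higher genes. *Timp4*, the gene that was lower, was near the limit of counting in the members at 1.31 and 1.305 CPM.

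Complement genes were higher in 9 of 10 tested cases and lower in none, with a median log2 fold change of 1.42. *C4b*, a component of the classical and lectin pathways, stood at 1085 and 1008 CPM against 74.6 and 55.2 (4.12 ± 0.17, adjusted p = 5.2e-11). *C3*, the component on which the pathways converge, stood at 1157 and 1508 CPM against 219 and 314 (2.44 ± 0.14, adjusted p = 1.5e-09) and *C2* at 166 and 134 CPM against 16.3 and 10.6 (3.58 ± 0.20, adjusted p = 1.0e-09). *Serping1*, the C1 inhibitor, was the gene not called, at 1902 and 1655 CPM against 1602 and 1431 (0.33 ± 0.12, adjusted p = 0.055).

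Of 14 chemokines and cytokines tested, 12 were higher and 1 lower (median 2.13). *Cxcl12*, which retains leukocytes and stem cells in tissue niches, stood at 141 and 131 CPM against 8.27 and 8.598 (4.11 ± 0.16, adjusted p = 1.8e-11), and *Csf1*, the macrophage growth factor, at 48.6 and 71.98 CPM against 14.01 and 15.05 (2.14 ± 0.17, adjusted p = 4.7e-08). *Il6* stood at 173 and 28.7 CPM against 18.3 and 4.73 (3.18 ± 0.20, adjusted p = 4.7e-09), with most of its UMIs in library 1. *Kitl*, the ligand of the mast cell receptor Kit, went the other way at 76.2 and 100.1 CPM against 136 and 179.6 (-0.74 ± 0.13, adjusted p = 0.00035).

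Modulators of Wnt, BMP and TGF-beta signals were higher in 14 and lower in 3 of 19 tested cases (median 1.89). *Gdf10*, a BMP family ligand, stood at 44.7 and 68.6 CPM against 1.601 and 1.43 (5.27 ± 0.25, adjusted p = 1.5e-10), *Sfrp1*, a secreted Wnt antagonist, at 134 and 200.5 CPM against 16.01 and 22.4 (3.22 ± 0.14, adjusted p = 6.7e-11), and *Tgfb3* at 111 and 77.2 CPM against 16.01 and 10.7 (2.92 ± 0.15, adjusted p = 4.0e-10). *Bmper*, a secreted BMP regulator, was lower at 5.91 and 7.65 CPM against 89.1 and 97.9 (-3.66 ± 0.19, adjusted p = 7.6e-10), as was *Wnt2*, a ligand that acts on alveolar epithelium, at 88.01 and 55.01 CPM against 370.4 and 178 (-1.78 ± 0.13, adjusted p = 2.6e-08). *Wnt5a*, a ligand that signals without beta-catenin, was higher at 42.4 and 58.9 CPM against 11.2 and 18.2 (1.89 ± 0.19, adjusted p = 8.9e-07). The Wnt ligands of the list thus did not share a direction.

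In the insulin-like growth factor system, 7 of 10 genes were higher and 2 lower (median 1.29), and the binding proteins were divided. *Igfbp5* stood at 63.7 and 98.5 CPM against 0.267 and 2.01 (6.25 ± 0.34, adjusted p = 9.4e-10) and *Igfbp4* at 633 and 401 CPM against 18.1 and 13.8 (5.11 ± 0.16, adjusted p = 3.2e-12). *Igfbp3* went the other way at 163 and 155 CPM against 665 and 526 (-1.79 ± 0.13, adjusted p = 1.8e-08). *Igfbp2*, also called lower, was at 0.328 and 0.559 CPM against 0 and 14.3, and in library 1 alone its sign was the opposite. The ligand *Igf1* stood at 102 and 136 CPM against 49.5 and 49.3 (1.37 ± 0.13, adjusted p = 6.3e-07).

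Of 20 transcription factor genes tested, 9 were higher and 4 lower. *Osr1*, a factor of mesenchymal progenitors, stood at 96.2 and 102 CPM against 22.4 and 17.6 (2.41 ± 0.16, adjusted p = 5.8e-09), *Klf4* at 417 and 266 CPM against 86.3 and 36.7 (2.65 ± 0.15, adjusted p = 1.5e-09) and *Gli1*, an effector and target of Hedgehog signals, at 12.8 and 11.4 CPM against 1.07 and 1.003 (3.59 ± 0.37, adjusted p = 1.6e-06). *Foxf1*, a factor of lung mesenchyme, was at 47.9 and 45.5 CPM against 10.7 and 14.9 (1.97 ± 0.20, adjusted p = 1.0e-06). The lung mesenchyme T-box genes were lower, with *Tbx2* at 161 and 161 CPM against 322 and 276 (-0.78 ± 0.12, adjusted p = 0.00016), *Tbx4* (-0.40 ± 0.12, adjusted p = 0.019) and *Tbx5* (-0.58 ± 0.15, adjusted p = 0.0073). *Twist1* had 16 UMIs in the members and none in the alveolar comparison.

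Among the 10 genes with the largest fold in each direction and a mean of at least 50 CPM, several were on none of these lists. *Fxyd6*, a regulator of the sodium pump, stood at 310.3 and 271 CPM against 5.602 and 4.01 (6.02 ± 0.17, adjusted p = 1.2e-12), *Ccdc80*, a secreted matrix protein, at 132 and 195 CPM against 6.803 and 8.88 (4.47 ± 0.16, adjusted p = 1.8e-11) and *Smoc2*, a matricellular protein, at 112 and 128 CPM against 3.73 and 6.45 (4.67 ± 0.21, adjusted p = 9.2e-11). *Abcc9*, a subunit of ATP-sensitive potassium channels that was named for its difference with *Rbp4*, stood at 55.8 and 61.5 CPM against 1.20 and 2.01 (5.28 ± 0.23, adjusted p = 6.8e-11), and its partner *Kcnj8*, counted in the list of pericyte genes, at 77.5 and 82.2 CPM against 1.33 and 6.88 (4.41 ± 0.31, adjusted p = 1.4e-08). Both subunits of that channel were thus higher. Among the largest decreases outside the lists was *Colq*, the collagen-like tail of acetylcholinesterase, at 16.7 and 15.7 CPM against 132 and 150.2 (-3.04 ± 0.18, adjusted p = 2.8e-09).

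**Figure D3:**
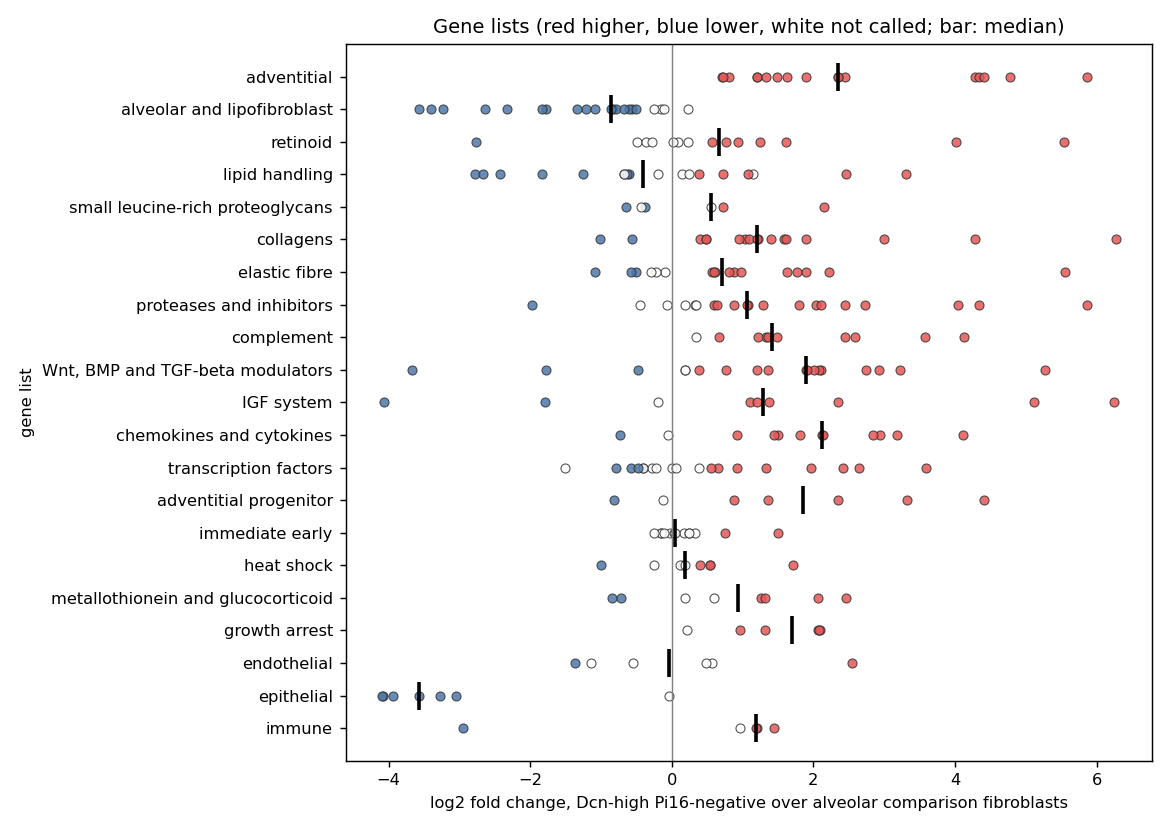
Log2 fold change of each tested gene of 21 lists between Dcn-high Pi16-negative and alveolar comparison fibroblasts, red where called higher, blue where called lower and white where not called, with a black bar at the median of the list. Genes with 3 or fewer UMIs in either group are not drawn, and the transcription factor list, in which 1 tested gene was at 0 in the alveolar cells, has no bar. The adventitial, complement and collagen lists lie almost wholly to the right of 0 and the alveolar and epithelial lists to its left, while the immediate early list is centred near 0.

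Of 21 genes of alveolar fibroblasts and lipofibroblasts, 17 were lower and none higher, with a median log2 fold change of -0.86. *Slc7a10*, an amino acid transporter, stood at 19.7 and 16.6 CPM against 325 and 169.96 (-3.57 ± 0.16, adjusted p = 1.2e-10), *Hopx* at 11.2 and 16.04 CPM against 129 and 179.7 (-3.40 ± 0.16, adjusted p = 1.2e-10) and *Tagln*, the actin-binding protein transgelin, at 72.2 and 76.1 CPM against 698 and 796 (-3.23 ± 0.18, adjusted p = 1.1e-09). These genes were still counted in the *Dcn*-high fibroblasts. *Ces1d* stood at 142 and 202 CPM against 665 and 634 (-1.83 ± 0.14, adjusted p = 3.8e-08) and *Plin2*, the coat protein of lipid droplets, at 103 and 154 CPM against 239.7 and 195 (-0.67 ± 0.17, adjusted p = 0.0085). *Inmt*, a methyltransferase that marks alveolar fibroblasts, was among the 4 genes not called, at 6486 and 5046 CPM against 7420.0 and 7285 (-0.25 ± 0.14, adjusted p = 0.2). *Pdgfra*, a growth factor receptor of many fibroblasts, was lower at 512 and 741 CPM against 1088 and 1283 (-0.83 ± 0.13, adjusted p = 0.00017).

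Lipid handling genes were divided, with 5 of 18 tested higher and 8 lower (median -0.40). *Lpl*, lipoprotein lipase, stood at 118 and 139 CPM against 23.1 and 6.16 (3.31 ± 0.30, adjusted p = 3.3e-07), and *Pltp*, a phospholipid transfer protein, at 182 and 107 CPM against 34.01 and 22.1 (2.46 ± 0.14, adjusted p = 2.0e-09). *Fabp5*, a fatty acid carrier, was lower at 9.195 and 5.22 CPM against 50.3 and 43.7 (-2.66 ± 0.22, adjusted p = 1.3e-07), as was *Pnpla2*, the triglyceride lipase of droplets, at 21.7 and 29.7 CPM against 40.4 and 94.01 (-1.26 ± 0.19, adjusted p = 7.4e-05). The list had no common direction. *Apoe*, a lipoprotein component, was not called at 5844 and 5141 CPM against 5479 and 5225 (0.15 ± 0.14, adjusted p = 0.48).

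Retinoid genes were of particular interest because the cells had been sorted on retinoids. Of 16 tested, 8 were higher and 1 lower (median 0.67), and the other 12 of the 28 on the list were too low to test. *Lrat*, which makes the stored retinyl esters, stood at 456 and 279.5 CPM against 292 and 89.997 (1.25 ± 0.18, adjusted p = 7.5e-05) and was detected in 73.1% and 77.3% of the members against 50.2% and 30.3% of the alveolar cells, or 50% and 38.0% against 38.8% and 13.7% after thinning. *Lrat* was thus higher in the *Dcn*-high fibroblasts in both libraries. It did not rise steadily with *Dcn* among them. From 5 to 9 up to 40 or more *Dcn* UMIs, the 4 bins held 453, 483, 461 and 286 CPM in library 1. In library 2 they held 228, 290, 322 and 270 CPM. Cells with 1 *Dcn* UMI that met the other conditions already held 371 and 165 CPM.

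The dehydrogenases and reductases that convert retinol were mostly higher as well. *Adh1*, which oxidizes retinol, stood at 240.05 and 230.3 CPM against 85.2 and 80.7 (1.61 ± 0.12, adjusted p = 4.8e-08), *Rdh10*, the main retinol dehydrogenase of development, at 11.8 and 19.02 CPM against 8.403 and 9.03 (0.93 ± 0.23, adjusted p = 0.0059) and *Dhrs3*, which reduces retinaldehyde back to retinol, at 146 and 93.2 CPM against 78.03 and 70.2 (0.76 ± 0.15, adjusted p = 0.001). *Aldh1a1*, which makes retinoic acid, was not called at 609 and 1215 CPM against 756 and 1878 (-0.37 ± 0.14, adjusted p = 0.057). *Adh7*, a further alcohol dehydrogenase, was at 30.9 and 7.83 CPM where 3 UMIs were counted in the alveolar cells. *Cyp26b1*, which degrades retinoic acid, was low but higher at 12.5 and 3.73 CPM against 0.267 and 0.717 (4.01 ± 0.62, adjusted p = 0.00015).

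The receptors did not follow. *Rara*, *Rarg*, *Rxra* and *Rxrb* were all tested and none was called, with values such as 29.9 and 42.3 CPM against 28.9 and 37.4 for *Rara* and 22.3 and 30.6 CPM against 23.9 and 31.96 for *Rxra*. The retinoic acid-binding protein gene *Crabp1* was the retinoid gene called lower, at 0.328 and 1.49 CPM against 12.1 and 5.45 (-2.76 ± 0.52, adjusted p = 0.00086). *Ttr*, which partners RBP4 in plasma, the RBP4 receptor genes *Stra6* and *Stra6l*, and *Cyp26a1* and *Cyp26c1* had 0 UMIs in the *Dcn*-high fibroblasts.

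**Figure D4:**
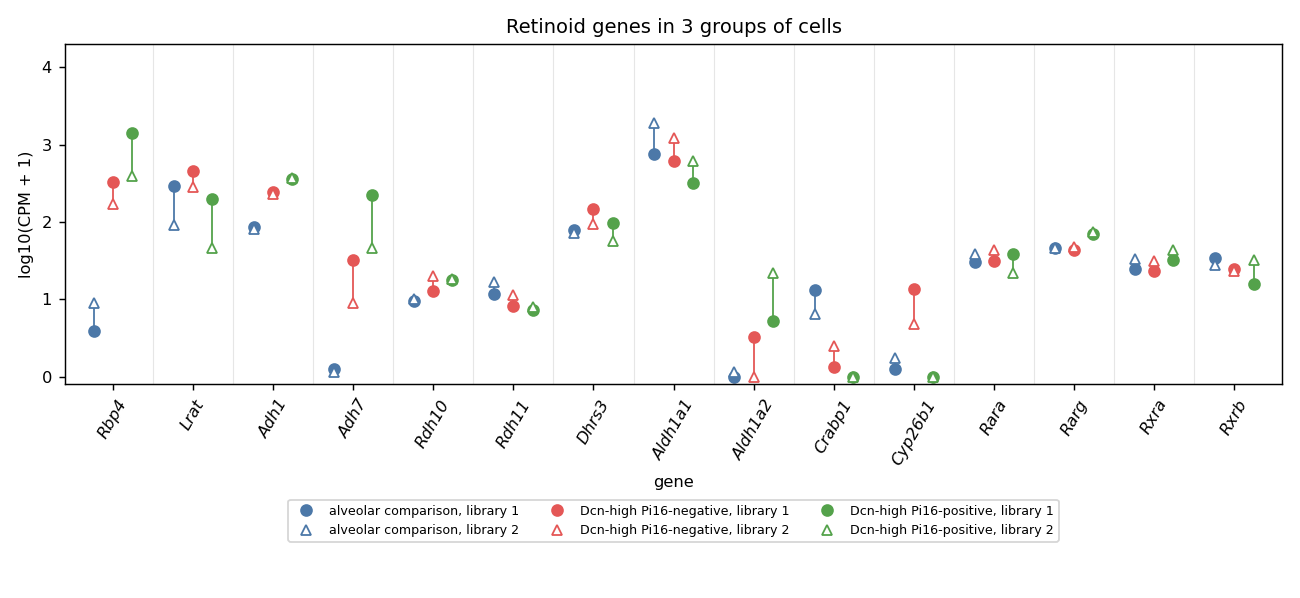
Level, as log10(CPM + 1), of 15 of the 16 tested retinoid genes in alveolar comparison, Dcn-high Pi16-negative and Dcn-high Pi16-positive fibroblasts, with a circle for library 1 and a triangle for library 2 joined by a line. Lrat is highest in the Pi16-negative cells, Rbp4 and Adh7 are highest in the Pi16-positive cells, and the receptors Rara, Rarg, Rxra and Rxrb stay between 1 and 2 on this scale in each group.

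Immediate early and heat shock genes are known to be raised by tissue digestion. Of 13 immediate early genes, 2 were higher and none lower (median 0.04), namely *Fosb* (0.74 ± 0.14, adjusted p = 0.00063) and *Nr4a1* (1.503 ± 0.15, adjusted p = 9.5e-07), and *Fos* itself was not called at 6179.8 and 3925 CPM against 6795 and 3289 (0.17 ± 0.13, adjusted p = 0.38). Of 9 heat shock genes 4 were higher and 1 lower (median 0.19). The metallothioneins *Mt1* at 5009 and 5466 CPM against 999.7 and 1693 (2.07 ± 0.23, adjusted p = 3.7e-06) and *Mt2* (2.46 ± 0.26, adjusted p = 1.8e-06) were higher, within a list of metallothionein and glucocorticoid-responsive genes of which 4 of 8 were higher and 2 lower (median 0.93). Of 6 growth arrest genes, 5 were higher and none lower (median 1.69), such as *Gas6* at 660.4 and 569.9 CPM against 167 and 144 (2.09 ± 0.15, adjusted p = 2.6e-08) and *Cdkn1a* (1.32 ± 0.13, adjusted p = 9.8e-07), which is also on the previous list.

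Markers of other cells differed between the groups as well. Summed over 8 epithelial genes, the *Dcn*-high fibroblasts stood at 482 and 164 CPM and the alveolar comparison at 4752 and 3497 CPM, with 6 of 7 tested genes lower, led by *Sftpc*, the surfactant protein C gene, at 374 and 115 CPM against 4056 and 2795 (-3.93 ± 0.25, adjusted p = 4.2e-09). *Sftpc* was detected in 74.3% and 47.9% of the members and 72.5% and 43.3% of the alveolar cells, and the median cell of both groups held 1 UMI in library 1 and 0 in library 2. The highest single cells held 348 and 278 UMIs among the members and 5093 and 3461 among the alveolar cells. After thinning the shares were 41.3% and 10.1% of the members against 53.7% and 20.2% of the alveolar cells. Cells with very high counts thus weighed heavily in the alveolar sums. The summed immune genes were at 199.99 and 63.03 CPM against 760 and 513, although 3 of 5 tested genes were higher and 1, *Lyz2*, lower. Endothelial genes summed to 74.2 and 214 CPM against 167 and 422 (1 of 6 higher, 1 lower), smooth muscle genes to 83.7 and 71.6 against 98.6 and 338 (2 of 3 lower), and mesothelial genes to 40.7 and 52.4 against 125 and 202 (the tested gene, *Upk1b*, lower). Pericyte genes summed to 122 and 131 CPM against 23.7 and 36.0 (2 of 3 higher, 1 lower), but the defining *Higd1b* and *Notch3* were near the limit of counting and the sum was mostly *Kcnj8* and *Pdgfrb*. Peribronchial genes summed to 207 and 149 CPM against 53.2 and 31.2, with all 4 tested higher. Schwann cell genes summed to at most 1.97 CPM in either group. Cell cycle genes were at 2.30 and 28.3 CPM against 1.47 and 0.716 (1 of 2 tested higher), so that library 2 held nearly all of them. The part of free transcripts or of attached cells in the results was not tested.

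Between the *Dcn*-high fibroblasts and the *Pi16*-positive fibroblasts the differences were fewer, and the *Pi16*-positive cells lay farther from the alveolar cells in many genes of the adventitial list. Of 11589 genes tested in the same model, 119 (1.03%) were higher in the *Pi16*-negative cells and 100 (0.863%) lower by edgeR's quasi-likelihood test, 217 of the 219 in the same direction in both libraries, and the median of all genes was 0.06. With 24 *Pi16*-positive cells in library 2, 3 UMIs in that group made 10.4 CPM. The fit without the library as a block called 3 genes, none of them higher in the *Pi16*-negative cells. The *Dcn*-high cells enter this comparison and the previous one, so that the 2 are not independent. The groups also differed in *Dcn*, on which both had been cut. The middle *Pi16*-positive cell held 34 *Dcn* UMIs in library 1 and 48 in library 2, and the middle *Pi16*-negative cell 12 and 18. Genes such as *Col14a1* and *Ces1d* changed with *Dcn* among the members, as given above. How much of the differences went with *Dcn* rather than with *Pi16* was not tested.

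*Rbp4* was lower in the *Pi16*-negative cells at 329 and 172 CPM against 1430.1 and 397 (-1.73 ± 0.33, adjusted p = 0.0084), a call that DESeq2 did not make. It was detected in 41.5% and 45.2% of the *Pi16*-negative against 85.2% and 87.5% of the *Pi16*-positive cells, and after thinning in 27.8% and 17.6% against 73.4% and 37.5%. *Cygb* was lower at 364 and 419.6 CPM against 856 and 679 (-0.92 ± 0.18, adjusted p = 0.0087) and *Col14a1* at 187 and 217 CPM against 582 and 466 (-1.30 ± 0.16, adjusted p = 0.00022). *Mmp3* was not called, at 1024 and 946 CPM against 69.6 and 706 (1.58 ± 0.56, adjusted p = 0.22). It was held by 7 of 81 *Pi16*-positive cells in library 1 and 9 of 24 in library 2, so that the libraries did not agree on its level there.

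Of the 19 adventitial genes, 9 were lower in the *Pi16*-negative cells and none higher (median -0.60). *Ccl11* stood at 11.8 and 5.22 CPM against 285 and 115 (-4.46 ± 0.24, adjusted p = 2.4e-08), *Serpinf1* at 64.4 and 41.2 CPM against 441 and 202 (-2.52 ± 0.19, adjusted p = 1.7e-06) and *Cd34* at 104 and 95.7 CPM against 337 and 351 (-1.73 ± 0.19, adjusted p = 5.6e-05). *Ly6a* was at 99.8 and 62.5 CPM against 633 and 452 (-2.70 ± 0.28, adjusted p = 3.6e-05), which DESeq2 did not call. Each of these genes was lower in both libraries. Of 8 progenitor genes tested, 4 were lower and none higher (median -1.16), among them *Cd248*, the surface protein endosialin, at 3.94 and 2.98 CPM against 86.5 and 69.6 (-4.41 ± 0.37, adjusted p = 7.1e-06) and *Ly6c1* at 2.96 and 2.61 CPM against 56.95 and 24.4 (-3.95 ± 0.56, adjusted p = 0.001). *Dpp4* had no UMI in the *Pi16*-positive cells of either library.

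Other genes with the largest decreases were *Entpd2*, an enzyme that breaks down extracellular ATP, at 11.5 and 8.39 CPM against 205 and 143 (-4.04 ± 0.23, adjusted p = 3.9e-08), *Fmod*, fibromodulin, at 18.1 and 12.1 CPM against 149.8 and 59.2 (-2.76 ± 0.28, adjusted p = 3.6e-05), *Ntn1*, netrin-1, at 20.4 and 15.1 CPM against 101 and 66.1 (-2.16 ± 0.26, adjusted p = 0.00015) and *Mmp23* at 19.7 and 15.5 CPM against 109.7 and 104 (-2.55 ± 0.26, adjusted p = 3.6e-05). *Aqp1* at 46.3 and 3.73 CPM against 302 and 34.8 and *Cd9* at 42.7 and 16.8 CPM against 272 and 86.99 were called by edgeR and not by DESeq2, and both had most of their UMIs in library 1. The chemokine *Ccl2* was called lower at 59.1 and 7.27 CPM against 245 and 6.96, but in library 2 alone the difference was 0.14 on the log2 scale in the other direction. Of 14 chemokines and cytokines 1 was higher, *Kitl* (1.28 ± 0.24, adjusted p = 0.0086), and 2 were lower (median -0.54).

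Alveolar genes went the other way, 8 of 21 being higher in the *Pi16*-negative cells and none lower (median 0.61). *Ces1d* stood at 142 and 202 CPM against 25.3 and 31.3 (2.67 ± 0.26, adjusted p = 2.7e-05), *Wnt2* at 88.01 and 55.01 CPM against 25.3 and 17.4 (1.86 ± 0.28, adjusted p = 0.0016) and *Inmt* at 6486 and 5046 CPM against 3584 and 3793 (0.71 ± 0.14, adjusted p = 0.011). *Slc7a10* was at 19.7 and 16.6 CPM, where 1 UMI was counted in the *Pi16*-positive cells. *Cdo1*, which breaks down cysteine, stood at 315 and 362 CPM against 42.2 and 104 (2.39 ± 0.22, adjusted p = 1.7e-05), *Scube2*, a secreted carrier of Hedgehog ligands, at 92.6 and 114 CPM against 21.1 and 24.4 (2.24 ± 0.27, adjusted p = 0.00015) and the sodium channel gene *Scn3a* at 77.8 and 93.99 CPM against 8.44 and 31.3 (2.35 ± 0.32, adjusted p = 0.00069). Of these, *Ces1d*, *Wnt2*, *Slc7a10*, *Cdo1*, *Scube2* and *Scn3a* were also lower in the *Dcn*-high than in the alveolar comparison fibroblasts (-1.94 ± 0.15, adjusted p = 5.0e-08 for *Cdo1*, -1.74 ± 0.13, adjusted p = 2.7e-08 for *Scube2*).

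A smaller set was higher in the *Pi16*-negative than in either comparison group. *Lrat* stood at 456 and 279.5 CPM against 198 and 45.2 in the *Pi16*-positive cells (1.76 ± 0.25, adjusted p = 0.00094). *Nr4a2*, an orphan nuclear receptor, stood at 209.8 and 107 CPM against 46.4 and 52.2 (1.78 ± 0.28, adjusted p = 0.0018) and 21.1 and 18.1 in the alveolar cells (3.07 ± 0.19, adjusted p = 2.8e-09). *Mt1* stood at 5009 and 5466 CPM against 2516 and 1601 (1.39 ± 0.23, adjusted p = 0.0031), and *S1pr3*, a receptor for sphingosine-1-phosphate, at 85.1 and 126 CPM against 12.7 and 52.2 (1.94 ± 0.30, adjusted p = 0.0018). *Ildr2* was at 63.7 and 102 CPM against 14.8 and 34.8 (1.88 ± 0.31, adjusted p = 0.0027), while 2 UMIs were counted in the alveolar cells. These genes were highest in the *Pi16*-negative cells in both libraries. Of the retinoid genes, 2 of 16 were higher in the *Pi16*-negative cells, *Lrat* and *Aldh1a1* (1.04 ± 0.16, adjusted p = 0.0014), and 2 lower, *Rbp4* and *Adh7* (-2.70 ± 0.24, adjusted p = 9.0e-06).

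Of 17 collagens, 2 were higher and 1 lower. Of 13 immediate early genes, 3 were higher (median 0.43), *Fos*, *Btg2* and *Nr4a1*, and of 8 metallothionein and glucocorticoid genes 3 were higher, *Mt1*, *Mt2* and *Sgk1*. Of 10 complement genes 2 were lower, *C1ra* and *Cfb*. *Cd74*, an antigen-presentation gene of immune cells, was higher at 245 and 60.6 CPM against 12.7 and 27.8 (3.12 ± 0.45, adjusted p = 0.001), a call that DESeq2 did not make, and its level in the *Dcn*-high fibroblasts differed between the libraries. Some markers of other cells differed here too. The summed immune genes were at 199.99 and 63.03 CPM against 61.2 and 24.4, and none of the 5 tested was called, although all 5 had an unadjusted p under 0.05 and their median log2 fold change was 3.03. *Upk1b*, the mesothelial gene that was tested, was called higher at 24.96 and 52.2 CPM against 2.11 and 6.96, where the *Pi16*-positive cells held 3 UMIs in all, and of 6 endothelial genes 1, *Tmem100*, was higher at 34.2 and 189.8 CPM against 10.5 and 17.4 (2.85 ± 0.42, adjusted p = 0.0012). Of 7 epithelial genes none was called. Their part in the differences was not tested.

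Within the *Dcn*-high fibroblasts, cells with at least 2 UMIs of *Rbp4* (*Rbp4*-high) and with none (*Rbp4*-negative) were compared. There were 134 and 130 *Rbp4*-high cells (27.3% in each library), 287 and 261 *Rbp4*-negative cells, and 70 and 85 with 1 UMI that entered the model as a group of their own. Their depth was alike, with a median of 5887.5 and 10591 UMIs in the *Rbp4*-high and 5928 and 10441 in the *Rbp4*-negative cells. The middle *Rbp4*-high cell held 13 and 21.5 *Dcn* UMIs, and the middle *Rbp4*-negative cell 12 and 16. Genes such as *Ces1d* changed with *Dcn* among the members, as given above. How much of the differences went with *Dcn* rather than with *Rbp4* was not tested. *Rbp4* itself was at 1119 and 557 CPM in the *Rbp4*-high cells by construction.

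The *Rbp4*-high cells carried more *Lamc3*, *Wnt4*, *Ptch1* and adventitial transcripts, and less *Lrat*, *Ces1d* and *Wnt2*. Of 9226 genes tested, 83 (0.9%) were higher and 68 (0.737%) lower by edgeR's quasi-likelihood test, all 151 in the same direction in both libraries, and the median of all genes was -0.00. The calls rest on the block, since without the library as a block edgeR called 0 of these genes (126 at an unadjusted p under 0.05) and DESeq2 with the block called 36. Of the genes named in this comparison, DESeq2 did not call *Abcc9*, *C3*, *Ccl11*, *Cd34*, *Chrdl1*, *Dhrs3*, *Gli1*, *Ifitm1*, *Igfbp7*, *Kitl*, *Ly6a*, *Lyz2*, *Mmp3*, *Nrcam*, *Scube2* and *Serpinf1*.

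*Lamc3*, the laminin gamma-3 chain, differed most, at 209 and 38.7 CPM against 2.83 and 2.77 (5.12 ± 0.33, adjusted p = 6.2e-11). *Wnt4* stood at 224 and 31.4 CPM against 28.9 and 13.9 (2.30 ± 0.25, adjusted p = 1.4e-06). Both differences were larger in library 1, at 5.66 for *Lamc3* and 2.90 for *Wnt4* in library 1 alone and 3.24 and 1.10 in library 2 alone. *Ptch1*, the Hedgehog receptor and itself a target of the pathway, stood at 255 and 109 CPM against 63.4 and 42.99 (1.69 ± 0.17, adjusted p = 4.5e-07), and *Gli1* at 27.6 and 17.3 CPM against 7.36 and 6.93 (1.58 ± 0.37, adjusted p = 0.021). Each was higher in both libraries. The same genes were counted in the 142 and 219 *Dcn*-high fibroblasts that had been left out for *Hhip* or *Aspn* and held no *Pi16*, at 265 and 57.7 CPM for *Lamc3*, 336 and 45.3 for *Wnt4* and 359 and 139 for *Ptch1*, beside *Rbp4* at 1475 and 423 CPM. No test was made on those cells.

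Further genes of the *Rbp4*-high cells were *Smim41* at 329.9 and 155 CPM against 69.6 and 78.7 (1.58 ± 0.18, adjusted p = 1.8e-06), *St8sia2*, a polysialic acid synthase, at 125 and 62.05 CPM against 42.4 and 25.3 (1.43 ± 0.17, adjusted p = 6.6e-06) and *Fgl2*, a prothrombinase, at 118 and 61.4 CPM against 41.3 and 31.6 (1.23 ± 0.18, adjusted p = 0.0001). *F3*, tissue factor, stood at 99.6 and 136 CPM against 28.3 and 77.3 (1.14 ± 0.17, adjusted p = 0.00015). *Ifitm1*, an interferon-induced membrane protein, stood at 414 and 302 CPM against 95.1 and 231 (1.14 ± 0.20, adjusted p = 0.001), a difference of 2.10 in library 1 alone and 0.39 in library 2 alone. *Pltp* (1.03 ± 0.15, adjusted p = 9.6e-05) and *Abcc9* (1.02 ± 0.18, adjusted p = 0.00079) were higher by a similar size.

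Of the 19 adventitial genes 9 were higher and 2 lower (median 0.29). *Adh7* stood at 101 and 23.4 CPM against 4.53 and 1.04 (4.42 ± 0.36, adjusted p = 8.7e-09), *Tm4sf1* at 77.97 and 48.7 CPM against 18.7 and 20.5 (1.60 ± 0.22, adjusted p = 3.2e-05), *Ccl11* at 31.2 and 11.3 CPM against 3.96 and 2.08 (2.70 ± 0.46, adjusted p = 0.00061) and *Cygb* at 461 and 555 CPM against 312 and 360.2 (0.60 ± 0.09, adjusted p = 0.0002). *Cd34* (0.88 ± 0.14, adjusted p = 0.00018), *Serpinf1* (0.94 ± 0.18, adjusted p = 0.0025) and *Ly6a* (0.68 ± 0.16, adjusted p = 0.023) were higher as well. The genes that were lower were *C3* at 802 and 1384 CPM against 1309.6 and 1562 (-0.42 ± 0.09, adjusted p = 0.0081) and *Mmp3*. *Ltbp2*, a fibrillin-binding protein, stood at 67.2 and 36.03 CPM against 4.53 and 8.32 (2.81 ± 0.36, adjusted p = 1.3e-05).

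Of 21 alveolar genes 5 were lower where *Rbp4* was high and none was higher (median -0.34). *Wnt2* stood at 40.8 and 30.02 CPM against 113 and 66.2 (-1.30 ± 0.18, adjusted p = 4.0e-05) and *Ces1d* at 62.4 and 117 CPM against 173 and 248 (-1.21 ± 0.14, adjusted p = 2.6e-06). *Cdo1* (-0.95 ± 0.10, adjusted p = 1.5e-06), *Trf*, the iron carrier transferrin (-0.997 ± 0.13, adjusted p = 2.1e-05), *Ccn5* (-1.06 ± 0.15, adjusted p = 3.4e-05), *Scube2* (-0.92 ± 0.16, adjusted p = 0.001), *Nrcam* (-0.90 ± 0.17, adjusted p = 0.0023) and *Chrdl1*, a BMP antagonist (-1.08 ± 0.17, adjusted p = 0.00024), were lower in both libraries. *Lyz2*, a lysozyme of myeloid and alveolar epithelial cells, had the largest fold of the lower genes named by fold, at 55.2 and 28.02 CPM against 219 and 38.8 (-1.38 ± 0.23, adjusted p = 0.00036), with a difference of -1.97 in library 1 alone and -0.44 in library 2 alone.

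Among the retinoid genes, *Lrat*, the retinal reductase gene *Dhrs3* and *Aldh1a1*, which forms retinoic acid, were lower where *Rbp4* was high. *Lrat* stood at 258 and 195 CPM against 547 and 317 (-0.88 ± 0.11, adjusted p = 4.4e-06), *Dhrs3* at 85.2 and 70.7 CPM against 173 and 99.2 (-0.74 ± 0.15, adjusted p = 0.0046) and *Aldh1a1* at 392 and 937 CPM against 716 and 1342 (-0.67 ± 0.08, adjusted p = 1.0e-05). *Adh7* was the 1 of 13 tested that was higher. *Lrat* went on falling within the *Rbp4*-high cells, from 378 and 231 CPM at 2 or 3 *Rbp4* UMIs to 234 and 184 at 4 to 7 and 136 and 136 at 8 or more. Cells with 1 *Rbp4* UMI stood at 466 and 299 CPM, between the *Rbp4*-negative and the *Rbp4*-high cells, and cells with 2 UMIs, just inside the limit, at 363 and 235 CPM.

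**Figure D5:**
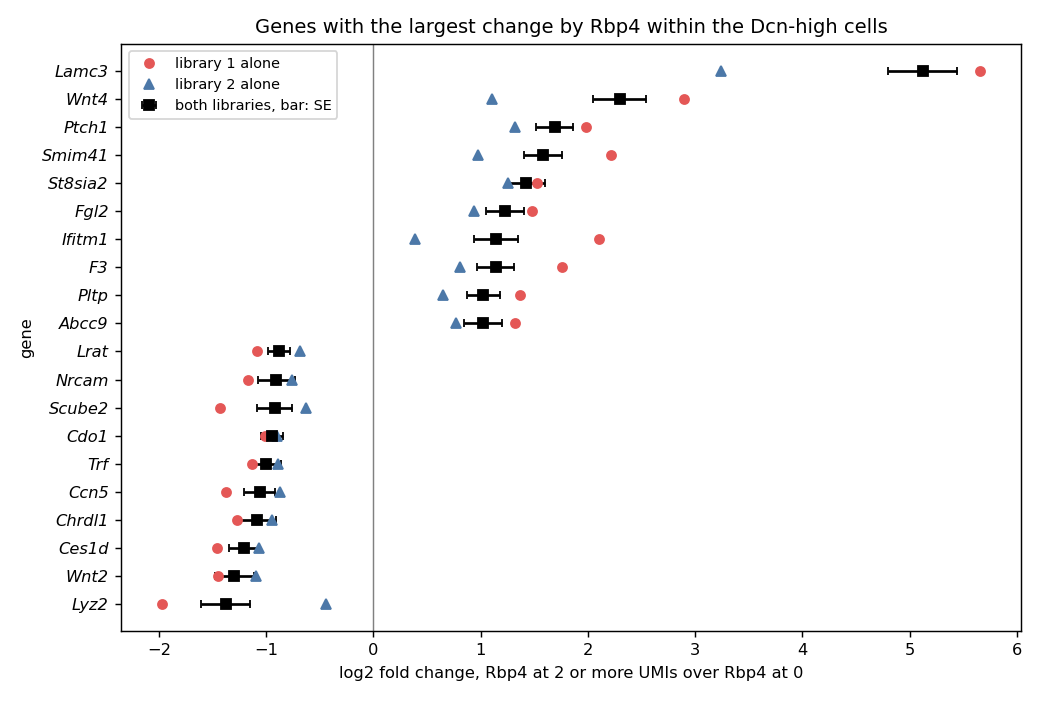
Log2 fold change of the 10 genes with the largest change in each direction between Rbp4-high and Rbp4-negative Dcn-high fibroblasts, with black squares for both libraries (bar, SE), red circles for library 1 alone and blue triangles for library 2 alone. All 20 genes have 1 sign in both libraries, and Lamc3, Wnt4, Ifitm1 and Lyz2 are among those furthest apart between them.

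Of 17 collagens, edgeR called 0 (5 at an unadjusted p under 0.05), with a median of -0.06, and *Col1a1* stood at 1227 and 1499.8 CPM against 1188 and 1519 (0.01 ± 0.07, adjusted p = 0.99). It also called 0 of 6 growth arrest genes (1 at an unadjusted p under 0.05) and 0 of 13 immediate early genes (4). Of the insulin-like growth factor genes 3 of 8 were higher, *Igfbp4* (0.74 ± 0.09, adjusted p = 2.6e-06), *Igfbp6* (0.50 ± 0.08, adjusted p = 0.00024) and *Igfbp7* (0.34 ± 0.06, adjusted p = 0.0014). Of 10 complement genes, 2 were lower, *C3* and *Clu*. *Cxcl14*, a chemokine of epithelium and stroma, was higher at 1764 and 1733 CPM against 979 and 1432 (0.55 ± 0.09, adjusted p = 0.00024), and *Kitl* was lower (-0.74 ± 0.17, adjusted p = 0.018). The summed epithelial genes were at 356 and 312 CPM in the *Rbp4*-high and 582 and 105 CPM in the *Rbp4*-negative cells, the summed immune genes at 69.6 and 93.4 CPM in the *Rbp4*-high and 298 and 58.2 CPM in the *Rbp4*-negative cells.

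Members with at least 2 UMIs of *Mmp3* were also counted among the *Rbp4*-high and the *Rbp4*-negative cells. At least 2 UMIs of *Mmp3* were held by 190 of 491 members (38.7%) and 241 of 476 (50.6%). Among *Rbp4*-high cells the share was 34 of 134 (25.4%, 95% interval 18.3 to 33.6) and 53 of 130 (40.8%, 32.2 to 49.7), and among *Rbp4*-negative cells 121 of 287 (42.2%, 36.4 to 48.1) and 134 of 261 (51.3%, 45.1 to 57.6). The share was lower in the *Rbp4*-high cells of both libraries. The intervals cover only the counting error of cells within a library, and no test was made on these shares. In all, 34 and 53 members held at least 2 UMIs of both genes, and 154 and 91 held no UMI of either.

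On the summed counts, *Mmp3* stood at 665 and 769 CPM in the *Rbp4*-high against 1009.7 and 963 in the *Rbp4*-negative cells (-0.44 ± 0.11, adjusted p = 0.025), a call that was lost in DESeq2, at a *Dcn* limit of 3 and at a mitochondrial limit of 5%. The level was not ordered through the bins of *Rbp4*. Cells with 1 *Rbp4* UMI had *Mmp3* at 1752 and 1167 CPM, above the *Rbp4*-negative cells, those with 2 or 3 UMIs at 1384 and 1068, those with 4 to 7 at 355 and 808 and those with 8 or more at 86.6 and 71.3 CPM. The 43 and 27 members with 8 or more *Rbp4* UMIs had the lowest *Mmp3* of these bins, and they held *Ces1d* at 22.6 and 68.2 CPM. Seen from *Mmp3*, the 50 and 84 members with 20 or more of its UMIs had *Rbp4* at 104 and 85.9 CPM, and the 277 and 182 members with none had it at 502 and 312 CPM. These bins were cut on the genes they describe, and no test was made on them.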

How the data were processed

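The authors deposited, per library, raw counts of UMIs per gene and cell barcode, made from 10x Genomics 3' v3.1 libraries. The submitters' processing notes name Cell Ranger 5.0.1 and mm10. The counts were whole numbers over 32285 genes. No doublets were removed, and the automatic Scrublet threshold (scanpy 1.11.5) marked 2 cells and 0 cells and was not relied on.

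Barcodes with 200 or more genes and no more than 10% mitochondrial UMIs were kept. The UMIs of each group of cells were added up within its library and compared by the two-sided quasi-likelihood test of edgeR 4.0.16 under R 4.3.3 (filterByExpr, TMM), in which the library was a block, because the groups came from the same libraries. The Benjamini-Hochberg adjustment ran over every gene tested, and adjusted p-values under 0.05 were called. The 12 genes of the rule, and Rbp4 within the members, were left out. SE is the fold change divided by the square root of F. The study tested single cells, which was not followed. Named genes were those of the 27 gene lists and the 10 with the largest fold in each direction among called genes at 50 CPM or more. The members and lists were chosen with earlier results of these data known. Some genes that enter the counts are not reported here. Scripts were tested on simulated data. Gene positions are from GENCODE on GRCm38.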

Additional observations from a re-analysis of the deposited data

How the results depend on the processing

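The 2 libraries share their groups, so the library was the replicate block of each model. Without it edgeR called 487 genes between Dcn-high and alveolar fibroblasts (371 higher, 116 lower), 0 genes with Rbp4 within the members (126 at an unadjusted p under 0.05) and 3 genes against the Pi16-positive cells (0 higher, 3 lower), and 229 of 322 named-gene results lost their call. DESeq2 called 1348 genes in the first comparison (885 higher, 463 lower), 36 in the second (22 and 14) and 153 in the third. Cells thinned to 2000 UMIs gave 1855 genes (1091 and 764) in the first and 60 in the second. Without a filter on low counts the second gave 242 and the third 384 (233 and 151), all of the reported genes among them, and the median of all genes in the third moved from 0.06 to 0.20. An Rbp4 limit of 4 UMIs gave 282 genes in the second, 138 of them among the 151 reported. A Dcn limit of 3 UMIs gave 332 genes in the third and a share of cells of 6.34%, and a limit of 10 gave a share of 3.29%. The share was 4.77% to 5.10% with either library left out. The causes were not tested.

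With either library left out, the fold change in the other is a value with no test. Of 322 named-gene values 33 moved by more than their spread and 1 reversed without library 1, and 19 moved and 2 reversed without library 2. The reversed values follow. Between Dcn-high and alveolar fibroblasts it ranged from -3.74 without library 1 to 0.79 without library 2 for Igfbp2 and from -3.54 to 0.0 for Cnn1, and against the Pi16-positive cells from -1.98 without library 2 to 0.14 without library 1 for Ccl2. The other counts stayed within 1.5 times of those reported under median ratio factors, a mitochondrial limit of 5%, removal of the highest Scrublet scores, cells of 4000 to 12000 UMIs (2109 genes in the first comparison, 2032 of them reported) and alveolar cells without Hhip or Aspn or, chosen after the data were seen, with any Mfap5 (2555 genes). Members under 3 UMIs of Tcf21, Npnt and Itga8, Pi16-positive cells of 4000 to 12000 UMIs and cells with 3 or more Pi16 UMIs were under 20 in a library and were not run. At this depth 3 UMIs of a gene made up to 10.4 CPM in the Pi16-positive cells.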

Other observations

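The Dcn-high fibroblasts of the 2 libraries differed in genes that are not fibroblast markers. Of 2968 genes at a mean of 50 CPM or more in these cells, 122 were over 2-fold higher in library 2 and 74 over 2-fold higher in library 1. Among the largest ratios were those of Zbtb16, a glucocorticoid-responsive factor, at 6.90 CPM and 175 CPM (library 1 first), of the circadian gene Dbp at 9.85 and 216 CPM, of Fkbp5, a co-chaperone of the glucocorticoid receptor, at 11.2 and 187 CPM, of the circadian repressor Nr1d1 at 28.6 and 230.3 CPM and of the nuclear RNA Neat1 at 51.9 and 321 CPM. In the other direction Gstp1 stood at 193 and 10.3 CPM, Gm10076 at 648 and 66.8 CPM, Il6 at 173 and 28.7 CPM and Lyz2 at 149 and 32.4 CPM. The libraries were sequenced on separate occasions, and mouse, time of day and handling cannot be told apart.

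A few members carried transcripts of other states in 1 library only. Msln, a mesothelial gene, was at 14.7 CPM in the Rbp4-negative cells of library 1 and had 0 UMIs in the others. The proliferation genes Mki67 and Top2a were at 8.67 and 16.3 CPM in the Rbp4-negative cells of library 2, and Mki67 had 0 UMIs in library 1. Of the members, 40 of 491 (8.15%) and 24 of 476 (5.04%) were among the 8% of cells with the highest doublet scores.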
